A study of Mus musculus with 8 samples.

Results

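Short hairpin RNAs lower a transcript by RNA interference, and a pair of hairpins against the same gene is commonly used so that each can be set against the other. The 8 genes described here, Eloa, Mcrs1, Nup210, Pof1b, Acss1, Trappc10, Cgref1 and Calml4, were chosen because their levels differed between a pair of hairpins directed at Fbxl19. They are 8 of 12393 genes with a probe set of their own on the array. They were measured by 13 of 22626 probe sets, namely 3 each for Eloa and Acss1, 2 for Cgref1 and 1 for each of the other 5 genes. The choice was made by name, from earlier results of these arrays in which the genes stood out between the hairpins or, for Nup210, with the hairpin named shRNA1. The differences among the hairpin groups are therefore given as a description, without a test.

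RNA was measured on Affymetrix Mouse 430A 2.0 arrays in J1 cells, a mouse embryonic stem cell line grown on gelatin with serum and leukemia inhibitory factor. The 8 arrays form 4 groups of 2, which are cells on day 4 of differentiation, cells with the Fbxl19 hairpin shRNA2, cells with the Fbxl19 hairpin shRNA1, and cells with the control hairpin shControl. The labels say neither how differentiation was carried out nor whether the day 4 cells carried a hairpin, and separate cultures are not named for the replicates, so errors and p-values cover only the spread between these arrays. The annotation holds no probe set for Fbxl19, and the depth of knockdown by either hairpin was not measured here.

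The product of Fbxl19 carries an F-box, through which such proteins bring substrates to ubiquitin ligases, and a zinc finger of the CXXC type, which recognises CpG dinucleotides that are not methylated. Eloa encodes elongin A, which stimulates elongation by RNA polymerase II, and Mcrs1 encodes a protein of the INO80 chromatin remodelling complex and of the NSL histone acetyltransferase complex. Nup210 encodes a membrane glycoprotein of the nuclear pore, Trappc10 a subunit of the TRAPPII complex that tethers vesicles at the Golgi, and Acss1 the mitochondrial acetyl-CoA synthetase. Pof1b encodes an actin-binding protein of epithelial junctions, Cgref1 a cell growth regulator with an EF-hand calcium-binding motif, and Calml4 a calmodulin-like protein. RefSeq places the genes on 8 different chromosomes, with Eloa on 4, Mcrs1 on 15, Nup210 on 6, Pof1b on X, Acss1 on 2, Trappc10 on 10, Cgref1 on 5 and Calml4 on 9.

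Because the CXXC domain of Fbxl19 recognises CpG, the promoters of 4 of the genes are shown, taken from RefSeq (GRCm38.p6). Each window runs from 250 bases before to 50 bases after an annotated start, 5′ to 3′ on the strand of the gene, with every CG dinucleotide in capitals. Eloa, Mcrs1 and Nup210 are shown as the genes that lay farthest below shControl with shRNA1, and Pof1b as the gene farthest above it. The windows are chr4:136021600-136021899 for Eloa, chr15:99251912-99252211 for Mcrs1, chr6:91116777-91117076 for Nup210 and chrX:112698602-112698901 for Pof1b, all on the minus strand. The Nup210 window lies wholly inside the RefSeq span of the gene, whose 5′ end is at 91118322, so it does not cover that end.
Eloa: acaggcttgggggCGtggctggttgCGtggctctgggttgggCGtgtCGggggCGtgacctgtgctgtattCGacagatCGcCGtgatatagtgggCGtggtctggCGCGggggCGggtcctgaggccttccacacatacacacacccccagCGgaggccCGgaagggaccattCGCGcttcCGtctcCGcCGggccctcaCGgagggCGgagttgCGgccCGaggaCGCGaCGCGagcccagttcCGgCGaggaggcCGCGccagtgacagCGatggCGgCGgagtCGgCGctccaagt
Mcrs1: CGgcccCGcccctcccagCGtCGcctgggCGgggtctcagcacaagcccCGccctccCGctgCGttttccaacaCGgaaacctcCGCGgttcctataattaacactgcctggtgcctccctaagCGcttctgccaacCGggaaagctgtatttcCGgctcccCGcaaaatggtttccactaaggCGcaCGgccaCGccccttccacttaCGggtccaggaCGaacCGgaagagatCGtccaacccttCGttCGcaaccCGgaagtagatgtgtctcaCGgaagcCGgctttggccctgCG
Nup210: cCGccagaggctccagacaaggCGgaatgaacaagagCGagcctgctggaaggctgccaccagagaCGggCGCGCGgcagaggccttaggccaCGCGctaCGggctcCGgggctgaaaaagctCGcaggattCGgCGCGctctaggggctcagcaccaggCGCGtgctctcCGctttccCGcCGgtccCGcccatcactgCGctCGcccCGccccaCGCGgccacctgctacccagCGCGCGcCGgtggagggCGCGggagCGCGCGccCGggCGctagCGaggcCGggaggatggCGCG
Pof1b: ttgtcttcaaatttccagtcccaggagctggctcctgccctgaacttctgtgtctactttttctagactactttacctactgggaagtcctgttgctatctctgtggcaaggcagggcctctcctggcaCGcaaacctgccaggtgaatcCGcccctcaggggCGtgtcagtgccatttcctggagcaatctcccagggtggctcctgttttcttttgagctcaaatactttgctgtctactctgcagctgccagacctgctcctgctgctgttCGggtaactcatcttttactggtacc

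The dinucleotide CG, which reads the same on both strands, occurs 36 times in the Eloa window, 28 times in that of Mcrs1 and 41 times in that of Nup210, against 4 times in that of Pof1b. Among all 32851 promoter windows of this length, the median count was 7, and 94.6% held at least 1 CG. As many CG as in the window, or more, were found in 6.2% of all windows for Eloa, 14.2% for Mcrs1, 3.5% for Nup210 and 68.6% for Pof1b. Trappc10 had 38 (5.0%), Acss1 23 (21.5%) and Calml4 8 (48.6%). The Calml4 window, chr9:62857854-62858153 on the plus strand, also lies inside the RefSeq span of its gene, which starts at 62857472. Cgref1 has 2 annotated windows that overlap, with 20 and 26. All of the genes but Pof1b thus lay above the median of 7, whichever hairpin they differed with and in whichever direction, Calml4 by 1 CG. These counts describe sequence and not binding. The windows cover 27025 genes, whereas 12393 genes were measured on the arrays. No share among measured genes was taken, so nothing is read from the counts about the 8 genes as a set.

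Across probe sets, Pearson's r between the arrays of a group was 0.9889 for day 4, 0.9965 for shRNA2, 0.9971 for shRNA1 and 0.993 for shControl. The shControl partners differed from each other by an SD of 0.32 on the log2 scale across probe sets, against 0.22 for shRNA2 and 0.20 for shRNA1. The lower quartile of an array lay between 3.78 and 3.90, and values below it are called dim here, since no measure of background is given. The excess of the 3' over the 5' actin control probe set, a sign of RNA quality, was 0.73 and 0.76 with shRNA2 and 0.71 and 0.70 with shRNA1, against 0.60 and 0.54 with shControl, and 0.73 and 0.65 on day 4 were likewise above shControl. The shRNA2 arrays lay above the shRNA1 arrays by a small margin. For Gapdh the same excess was 0.27 and 0.20 with shRNA2 and 0.23 and 0.18 with shRNA1, against 0.17 and 0.26 with shControl, with overlap, and 0.26 and 0.20 on day 4. The part of these values in the differences between groups was not tested. The mean level of 10 markers of embryonic stem cells was 11.44 to 11.58 on the 6 undifferentiated arrays, all 10 lying above the lower quartile. Lists of fibroblast, primitive endoderm, mesendoderm and neural markers averaged 4.15 to 4.41, 4.17 to 4.42, 4.42 to 4.64 and 5.53 to 5.99 over the 8 arrays. Trophoblast markers averaged 4.37 and 4.54 with shRNA2 and 4.39 and 4.60 with shRNA1, against 4.22 and 4.15 with shControl, 4 of 6 lying above the lower quartile on each knockdown array and 3 on each control array. Among them the keratin gene Krt7, named after its values were seen, differed from shControl by 1.21 ± 0.26 with shRNA2 and 1.40 ± 0.26 with shRNA1 (limma adjusted p = 0.447 and 0.104). Their part in the differences of the 8 genes from shControl was not tested.

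Eloa, Mcrs1 and Nup210 were lower with shRNA1 than in either other undifferentiated group. All values that follow are log2 expression per array. Eloa, by its brightest probe set, measured 7.44 and 7.22 with shRNA2, 5.71 and 6.09 with shRNA1, and 7.32 and 7.34 with shControl. The shRNA2 arrays lay on both sides of the control arrays, and both shRNA1 arrays lay more than a log2 unit below them. The difference of shRNA1 from shControl was -1.43 ± 0.16 (moderated SE, 2 arrays against 2; 2.69-fold lower), and that of shRNA2 was 0.00 ± 0.16.

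Mcrs1 measured 9.05 and 9.02 with shRNA2, 7.79 and 7.69 with shRNA1, and 8.96 and 9.23 with shControl. Here the shRNA2 arrays fell within the control range, and the shRNA1 arrays again stood apart. The differences from shControl were -1.36 ± 0.14 for shRNA1 (2.56-fold lower) and -0.06 ± 0.14 for shRNA2. Nup210 measured 6.59 and 6.49 with shRNA2, 5.27 and 5.29 with shRNA1, and 6.61 and 6.97 with shControl. Here the shRNA2 arrays lay just under both controls, by -0.25 ± 0.18 on average, and the shRNA1 arrays lay -1.51 ± 0.18 below (2.85-fold lower). In the difference of shRNA2 minus shRNA1, Eloa had 1.43 ± 0.16, Mcrs1 1.29 ± 0.14 and Nup210 1.26 ± 0.18.

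Pof1b and Acss1 showed the opposite direction, with higher levels in shRNA1. Acss1, by its brightest probe set, measured 5.56 and 5.70 with shRNA2, 7.17 and 7.34 with shRNA1, and 5.67 and 6.11 with shControl. The shRNA1 arrays exceeded the higher control array by over a log2 unit, and the shRNA2 arrays overlapped the controls. Against shControl, shRNA1 differed by 1.36 ± 0.18 (2.57-fold higher) and shRNA2 by -0.26 ± 0.18.

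Pof1b measured 3.33 and 3.67 with shRNA2, 5.25 and 5.07 with shRNA1, and 3.51 and 3.79 with shControl. Both shRNA2 arrays were dim, as was shControl replicate 1, and only the shRNA1 arrays rose clearly above the lower quartile, so the difference of 1.50 ± 0.17 between shRNA1 and shControl has an uncertain size and no fold is given. The difference of shRNA2 minus shRNA1 was -1.66 ± 0.17 for Pof1b and -1.62 ± 0.18 for Acss1.

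In Trappc10 and Cgref1 it was shRNA2 that stood apart. Trappc10 measured 6.35 and 6.53 with shRNA2, 7.57 and 7.82 with shRNA1, and 7.36 and 7.51 with shControl. Both shRNA2 arrays lay below all others, by -0.997 ± 0.167 against shControl (2.00-fold lower), while the shRNA1 arrays were slightly above the controls, by 0.26 ± 0.17. Cgref1, by its brightest probe set, measured 6.28 and 6.15 with shRNA2, 5.19 and 5.13 with shRNA1, and 5.26 and 5.43 with shControl. Its shRNA2 arrays were higher than the controls by 0.87 ± 0.13 (1.83-fold), and its shRNA1 arrays were just below them, by -0.18 ± 0.13.

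Calml4 lay on opposite sides of the controls with the hairpins. It measured 9.50 and 9.39 with shRNA2, 8.20 and 8.12 with shRNA1, and 8.54 and 8.83 with shControl, with no overlap between any of the 3 groups. Against shControl the difference was 0.76 ± 0.17 for shRNA2 and -0.53 ± 0.17 for shRNA1, and shRNA2 minus shRNA1 came to 1.29 ± 0.17 (2.45-fold).

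**Figure D1:**
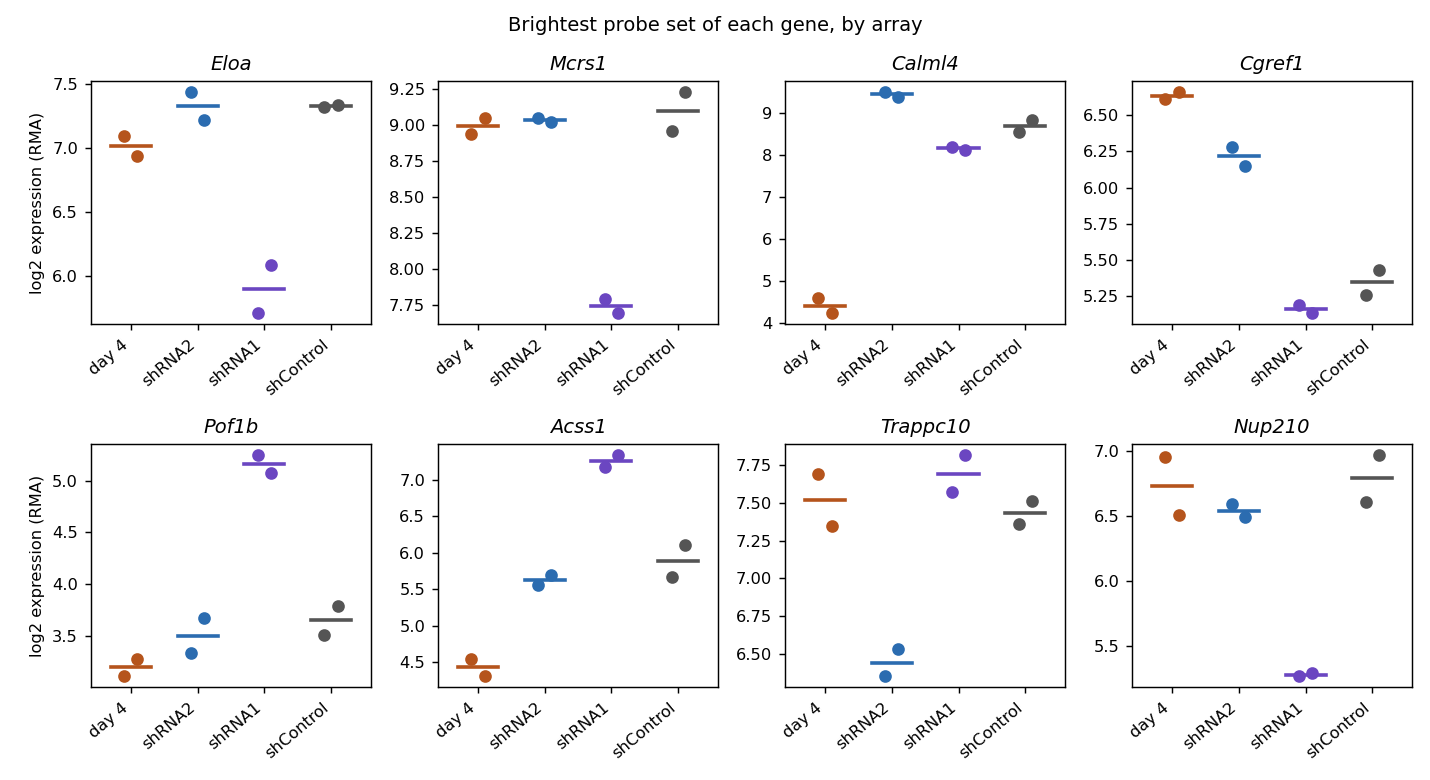
Log2 expression of the brightest probe set of each gene (vertical axis, RMA values, with a scale of its own in each panel) on the arrays of day 4, shRNA2, shRNA1 and shControl; points are arrays and bars are group means of 2. The shRNA1 arrays stand alone for Eloa, Mcrs1, Nup210, Pof1b and Acss1 among the undifferentiated groups, and the shRNA2 arrays for Trappc10 and Cgref1.

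By the size of the difference from shControl, shRNA1 was the farther hairpin for 5 of the 8 genes and shRNA2 for 3. The choice of the genes bears on this count, so nothing is read from it about the hairpins. Ranked by the absolute difference between the hairpins over 12393 genes, the 8 genes took places between 4 (Pof1b) and 22 (Cgref1). Of all 22626 probe sets, 16 (0.0707%) had a limma adjusted p under 0.05 between the hairpins. Of the 8 genes, Trappc10 and Nup210 did not pass that threshold by their brightest probe set. The choice bears on the others, so nothing is read from their passing. Genes passing it by their brightest probe set and not among the 8 numbered 5, named after their values were seen. For shRNA2 minus shRNA1 AF067061 had -3.20, Usp17la -2.64, Gm20767 -2.11, Spesp1 -1.22 and Cacna2d2 -1.19. The comparisons of each hairpin with shControl share the control arrays.

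The probe sets of a gene read the same RNA on the same arrays, so they check the measurement and do not replicate the culture. Beyond the brightest, 5 other probe sets read Eloa, Acss1 and Cgref1, and their mean hairpin differences had the sign of the brightest, but the size did not carry over for Eloa and Acss1. The 8 brightest probe sets had a median absolute difference between hairpins of 1.29, and the 5 others 0.38. The shRNA2 and shRNA1 arrays did not overlap in 12 of the 13 probe sets, whereas over all probe sets this held for 42.2%; since the genes were chosen on this difference, nothing is read from the count.

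The second probe set of Eloa (1422591_at) measured 6.65 and 6.58 with shRNA2, 5.99 and 6.14 with shRNA1, and 6.70 and 7.06 with shControl. The shRNA1 arrays were again the lowest, at -0.82 ± 0.20 from shControl, but shRNA2 also lay below both controls, at -0.27 ± 0.20, and the hairpin difference was 0.55 ± 0.20. The third (1450676_at) measured 4.14 and 4.02 with shRNA2, 3.68 and 4.04 with shRNA1, and 4.23 and 4.53 with shControl, close to the lower quartile. Its hairpin groups overlapped, with a difference of 0.22 ± 0.17. Averaged over its probe sets, Eloa had a hairpin difference of 0.73 in place of 1.43.

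The other probe sets of Acss1 were dim on every array, ranging over the undifferentiated arrays from 3.14 to 3.68 (1437583_x_at) and from 2.38 to 2.83 (1437582_at). Their hairpin differences of -0.38 ± 0.13 and -0.33 ± 0.16 had the sign of the brightest probe set but not its size of -1.62, and the mean over the 3 probe sets was -0.78. In Cgref1 both probe sets gave like values. The dimmer one (1424528_at) measured 5.54 and 5.61 with shRNA2, 4.70 and 4.61 with shRNA1, and 4.74 and 5.19 with shControl, a hairpin difference of 0.92 ± 0.16 beside 1.05 ± 0.13 for the brighter. Mcrs1, Calml4, Pof1b, Trappc10 and Nup210 have a single probe set each, so their differences had no such check.

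**Figure D2:**
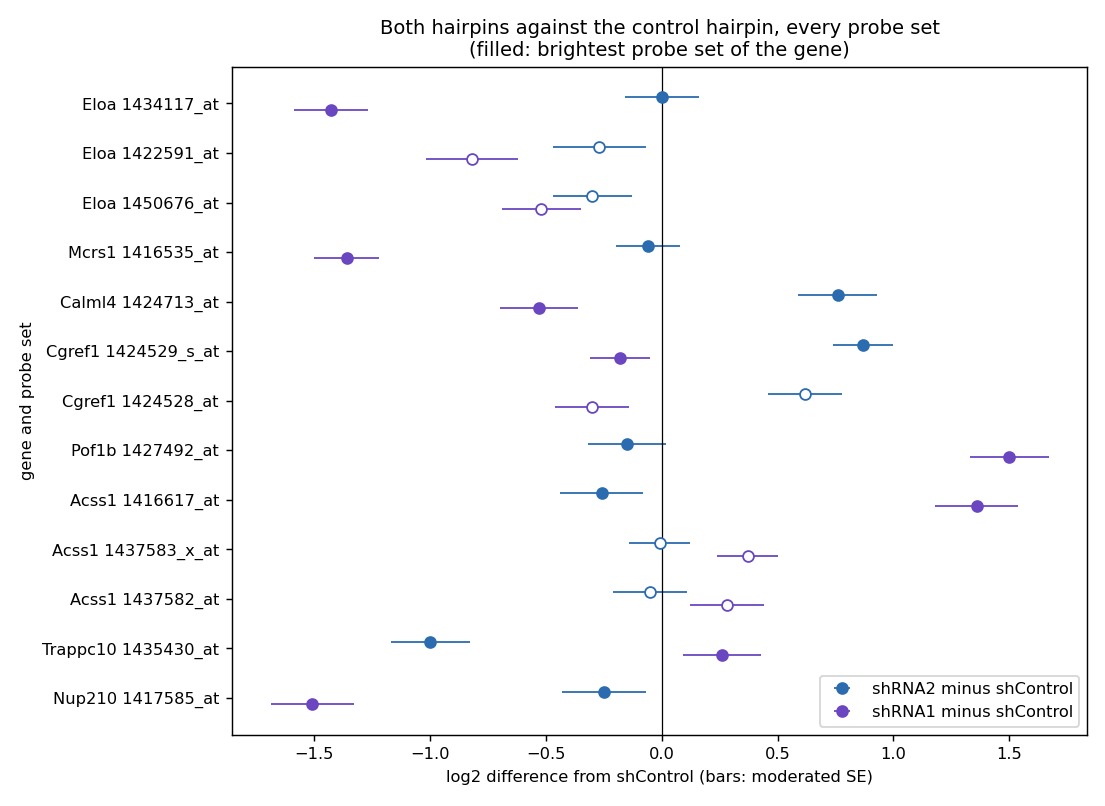
Log2 difference of each hairpin from shControl (horizontal axis, points with moderated SE, 2 arrays against 2) for the 13 probe sets; filled points are the brightest probe set of a gene. The shRNA1 difference of Eloa is -1.43 in the brightest probe set and -0.82 and -0.52 in the others, and that of Acss1 is 1.36 beside 0.37 and 0.28.

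Differentiation was a separate question, and day 4 was set against the equal mean of the 3 undifferentiated groups. That contrast is orthogonal to the differences on which the genes were chosen. It shares their arrays and their estimate of spread, so it is not independent of the choice. Calml4, Pof1b and Acss1 fell and Cgref1 and Nup210 rose on day 4 by limma, which is 5 of 8 genes and 6 of 13 probe sets, where 21.7% of all genes by their brightest probe set (10.2% higher and 11.5% lower) and 19.3% of all probe sets were called. Some day 4 values of these genes were known when the genes were chosen, so the count is no evidence about them as a set. Because the undifferentiated mean includes hairpin groups in which these genes moved, the difference from each group alone is given as well.

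Calml4 measured 4.59 and 4.23 on day 4, against 8.12 to 9.50 over the 6 undifferentiated arrays. Its day 4 arrays lay far below every other array, with a difference of -4.35 ± 0.14 (SE, 2 arrays against 6; 20.4-fold lower, adjusted p = 1.12e-06). Against single groups the difference was -5.04 from shRNA2, -3.74 from shRNA1 and -4.28 from shControl. The fall of 4.35 on day 4 compares with a separation of 1.29 between the hairpins.

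Acss1 measured 4.55 and 4.31 on day 4, against 5.56 to 7.34 in undifferentiated cells, with no overlap. It fell by 1.83 ± 0.15 on the log2 scale (3.56-fold, adjusted p = 5.67e-05), and the call held against each single group, with -1.20 from shRNA2, -2.83 from shRNA1 and -1.46 from shControl. Its dim probe sets gave -0.25 ± 0.11 and 0.12 ± 0.13 (adjusted p = 0.148 and 0.635).

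Cgref1 measured 6.61 and 6.66 on day 4, against 5.13 to 6.28 in undifferentiated cells, and rose by 1.06 ± 0.11 (2.09-fold, adjusted p = 0.000194). Its other probe set rose by 1.03 ± 0.13 (adjusted p = 0.000862). All day 4 arrays exceeded all others, but the shRNA2 arrays lay nearest, and against shRNA2 alone the difference was 0.42 (adjusted p = 0.0659). Day 4 cells and shRNA2 cells both measured higher than the same shControl arrays, by 1.30 and 0.87.

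Pof1b was dim on day 4, at 3.11 and 3.28, against 3.33 to 5.25 in undifferentiated cells. Its fall by 0.91 ± 0.14 (adjusted p = 0.00212) depended on the shRNA1 arrays. Against shControl alone the difference was -0.46 (adjusted p = 0.121) and against shRNA2 alone -0.31 (adjusted p = 0.324).

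Nup210 measured 6.95 and 6.51 on day 4, against 5.27 to 6.97 in undifferentiated cells, and was called higher by 0.53 ± 0.15 (adjusted p = 0.0388). This too depended on shRNA1, since the difference was -0.06 from shControl alone (adjusted p = 0.879), 0.19 from shRNA2 alone (adjusted p = 0.624) and 1.45 from shRNA1 alone. The call was also lost without any 1 of 6 arrays, which were day 4 replicate 1 (0.30), either shRNA1 array (0.52 and 0.53), either shRNA2 array (0.54 and 0.51) and shControl replicate 1 (0.47).

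Eloa, Mcrs1 and Trappc10 were not called. Eloa measured 7.10 and 6.94 on day 4, a difference of 0.17 ± 0.13 from the undifferentiated mean (adjusted p = 0.482), with 1.12 from shRNA1 alone and -0.31 from shControl alone. Mcrs1 measured 8.94 and 9.05, a difference of 0.37 ± 0.11 (adjusted p = 0.0511), with 1.26 from shRNA1 alone and -0.10 from shControl alone. Trappc10 measured 7.69 and 7.35, a difference of 0.33 ± 0.14 (adjusted p = 0.135), with 1.08 from shRNA2 alone and 0.09 from shControl alone. By the brightest probe set, the day 4 mean of these 3 genes thus lay within 0.31 of the shControl mean on the log2 scale. The other probe sets of Eloa lay farther below shControl, at -0.57 (1422591_at) and -0.37 (1450676_at; limma adjusted p = 0.0946 and 0.217). From the undifferentiated mean they differed by -0.21 ± 0.16 and -0.10 ± 0.14, opposite in sign to the brightest.

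On day 4 some of the marker lists also differed, and the calls counted here stand beside 21.7% of all genes called. The embryonic stem cell markers averaged 10.27 and 9.65, against 11.44 to 11.58 in undifferentiated cells, and 7 of 10 fell. Trophoblast markers averaged 5.44 and 5.42, against 4.15 to 4.60, and 3 of 6 rose. Fibroblast markers averaged 4.41 and 4.38, primitive endoderm 4.31 and 4.42, mesendoderm 4.43 and 4.63, and neural markers 5.53 and 5.59. The mesendoderm values lay within the undifferentiated range of 4.42 to 4.64, and the primitive endoderm values overlapped theirs. Of the other lists, 1 of 8 fibroblast markers rose and 1 fell, and 1 of 6 primitive endoderm markers rose. Of 5 mesendoderm markers 1 fell, and of 6 neural markers 2 rose and 2 fell. Their part in the day 4 values was not tested, and in bulk RNA fewer cells of a type and less RNA per cell cannot be told apart.

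**Figure D3:**
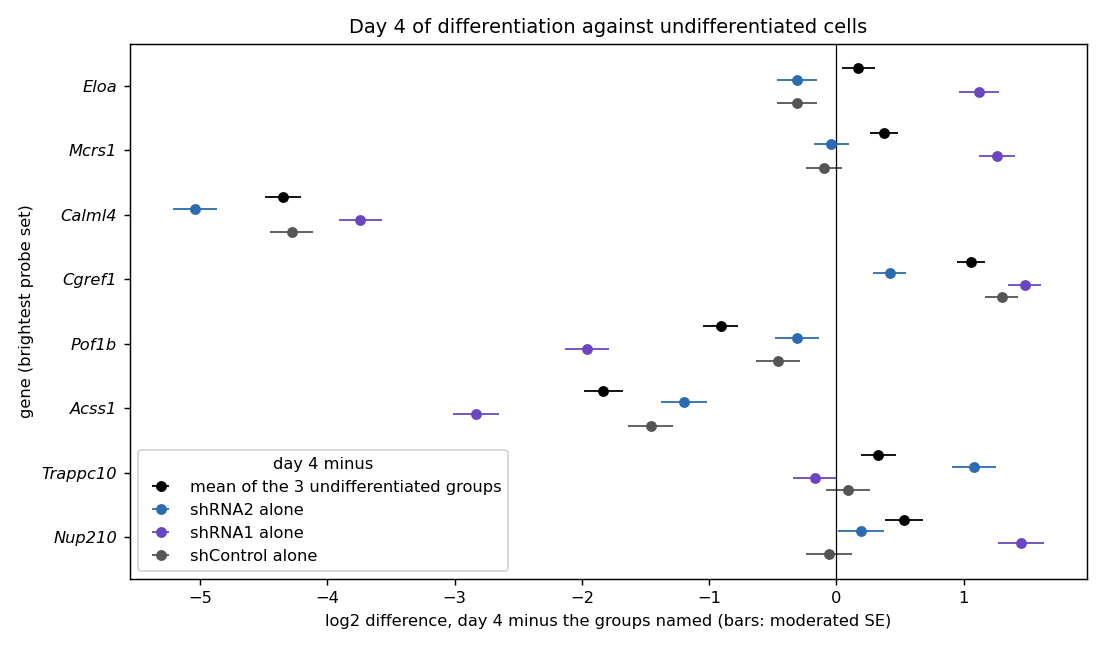
Log2 difference of day 4 (horizontal axis, points with moderated SE) from the mean of the 3 undifferentiated groups and from shRNA2, shRNA1 and shControl alone, for the brightest probe set of each gene. Calml4 and Acss1 lie left of 0 by over a log2 unit whichever group is taken, while Eloa, Mcrs1, Nup210 and Trappc10 move away from 0 mainly against the hairpin group in which they were low.

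Genes acting in the same complex or pathway were compared through lists of 149 genes, of which 120 were measured. Between the hairpins limma called 0 of these 120, where 0.0888% of all genes were called. An unadjusted p under 0.05 was reached by 7 of the 120, beside 1052 of all 22626 probe sets. Their differences of shRNA2 minus shRNA1 ran from -0.65 to 0.59, none as large as those of the 8 chosen genes, as their choice fixes. A count of 0 at this background does not set the lists apart from other genes. The elongin partners of Eloa, Elob and Eloc, had hairpin differences of 0.06 and 0.05. The elongation factor gene Ell, at the upper end of the range, averaged 6.56 with shRNA2, 5.98 with shRNA1 and 6.67 with shControl, so shRNA1 minus shControl was -0.69 ± 0.12 (limma adjusted p = 0.0813) and shRNA2 minus shControl -0.11 ± 0.12. At the lower end, the pyruvate dehydrogenase kinase gene Pdk4 averaged 5.63 with shRNA2, 6.28 with shRNA1 and 5.20 with shControl, and shRNA1 minus shControl was 1.09 ± 0.25 (limma adjusted p = 0.198). Elob, Eloc, Ell and Pdk4 were named here after their values were seen. The INO80 and NSL genes ran from -0.22 to 0.22. The other nuclear pore genes ran from -0.10 to 0.26, and TRAPP subunits from -0.38 to 0.12.

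On day 4 against undifferentiated cells, 16 of the 120 rose and 18 fell (28.3%, beside 21.7% of all genes). Of 25 elongin and elongation genes 1 rose and 4 fell (median -0.12, beside -0.001 over all genes). Tcea3, an elongation factor of the TFIIS family, fell by 2.22 ± 0.13 (limma adjusted p = 1.10e-05) and Aff1, a scaffold of the super elongation complex, by 2.00 ± 0.11, while Ell2, an elongation factor of the same complex, rose by 1.02 ± 0.18. Of 16 INO80 and NSL genes 1, Ino80c, rose and 3 fell, among them the ATPase gene Ino80 by 0.92 ± 0.12 and Wdr5 by 0.72 ± 0.11 (median -0.12).

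Of 25 nuclear pore genes 3 rose and 0 fell (median -0.02). A limma unadjusted p under 0.05 was reached by 8 of them, beside 6873 of all 22626 probe sets. The risers were Seh1l by 0.73 ± 0.11, the membrane nucleoporin Pom121 by 0.59 ± 0.13 and Nup50 by 0.48 ± 0.13. Of 9 TRAPP genes 2 fell, Trappc1 by 0.64 ± 0.19 and Trappc12 by 0.45 ± 0.12 (median -0.21). Of 7 genes related to calmodulin, Cabp1 and Cabp4 fell, at levels near or under the lower quartile (median -0.05).

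The acetyl-CoA genes included 5 of 16 that fell and 0 that rose (median -0.12). A limma unadjusted p under 0.05 was reached by 7 of them, where 6873 of all 22626 probe sets reached it. Like Acss1, the cytosolic acetyl-CoA synthetase gene Acss2 fell on day 4, to a mean of 5.42 against 6.75 with shRNA2, 6.81 with shRNA1 and 6.21 with shControl, a difference of -1.17 ± 0.18 (adjusted p = 0.00218). Its hairpin difference was -0.06 and that of Pdk4 -0.65, beside -1.62 for Acss1. The mitochondrial pyruvate carrier gene Mpc1 fell by 1.46 ± 0.34, and the pyruvate dehydrogenase kinase genes Pdk4 and Pdk1 by 1.09 ± 0.21 and 0.87 ± 0.22. Each of these averaged higher with both hairpins than with shControl, which raised the undifferentiated mean. The day 4 mean was 7.92 for Mpc1 against 8.99 with shControl, 4.62 against 5.20 for Pdk4, and 9.74 against 10.31 for Pdk1.

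Of 22 epithelial junction genes 11 rose and 2 fell on day 4 (median 0.56). Pof1b was called lower, but that call depended on the shRNA1 arrays, and from shControl alone it differed by -0.46 (limma adjusted p = 0.121). The claudin genes Cldn7 and Cldn6 rose by 3.77 ± 0.24 and 2.94 ± 0.15, and the keratin genes Krt18 and Krt8 by 3.29 ± 0.20 and 2.89 ± 0.22. The plakophilin gene Pkp3 and the plakoglobin gene Jup were the 2 that fell, by 1.10 ± 0.13 and 0.94 ± 0.16, and were named after their values were seen. Between the hairpins, where Pof1b differed by -1.66, these 22 genes ran from -0.41 to 0.52.

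**Figure D4:**
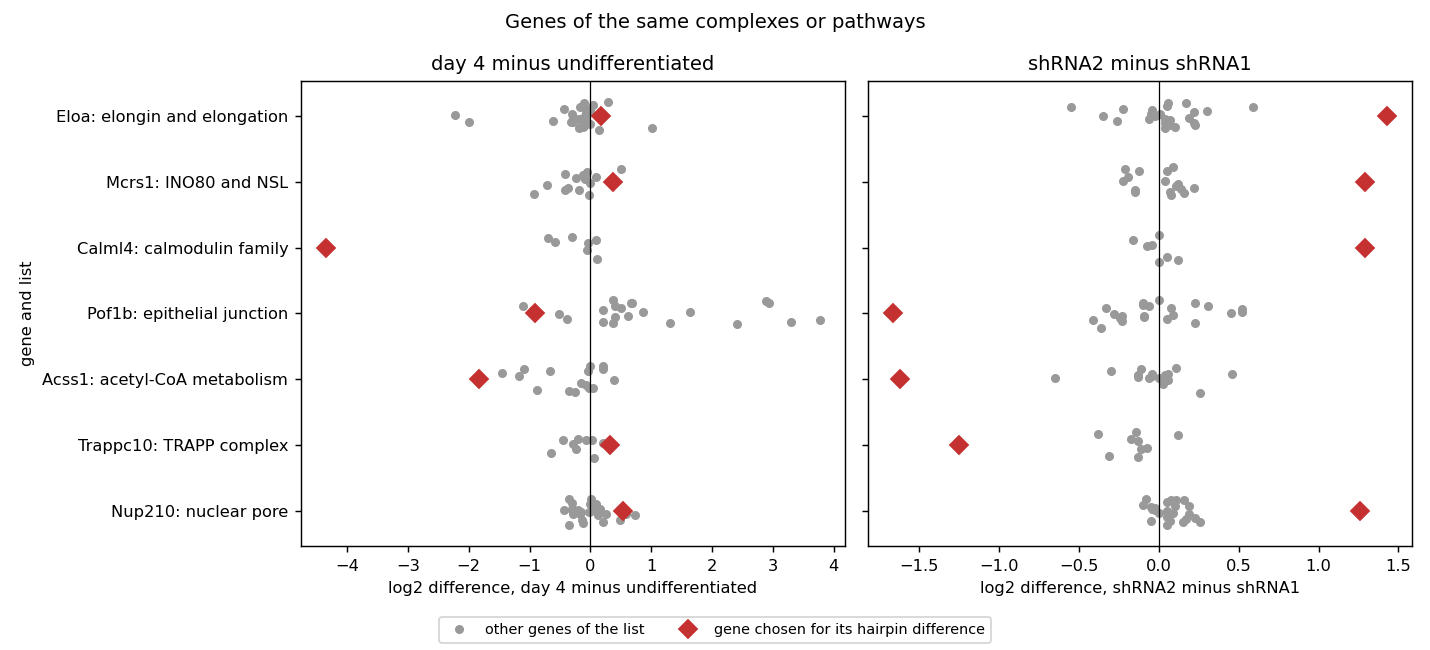
Log2 difference (horizontal axis) of day 4 minus undifferentiated cells, left, and of shRNA2 minus shRNA1, right, for 7 chosen genes (diamonds) and the other genes of their lists (points, spread vertically for legibility). On the right all list genes lie between -0.65 and 0.59 and the chosen genes beyond 1 in either direction, as their choice fixes. On the left the points of the epithelial junction list reach 3.77. Pof1b lies at -0.91 there, a value that depended on the shRNA1 arrays (-0.46 from shControl alone).

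The genes with the most similar pattern were found by the root mean square difference of log2 values over the 8 arrays, after each gene was centred on its own mean. Among the chosen genes, Mcrs1 and Nup210 differed by 0.17, Eloa and Mcrs1 by 0.19, and Eloa and Nup210 by 0.23, where the genes themselves varied about their means by 0.60 (Eloa), 0.57 (Mcrs1) and 0.63 (Nup210). By their brightest probe sets, Eloa and Nup210 thus had no nearer neighbours among 12393 genes than the other chosen genes with low shRNA1 arrays. The genes were chosen from differences on these same arrays, so this likeness follows in part from the choice and nothing is read from it. The nearest gene to Mcrs1 was Plac8, at 0.13, with means of 7.77 on day 4, 7.68 with shRNA2, 6.66 with shRNA1 and 7.82 with shControl. The arrays share their RNA and their processing across genes, so likeness is a description only.

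Nearest to Pof1b was Spesp1, a gene of the sperm equatorial segment, at 0.22, with means of 3.35 on day 4, 4.12 with shRNA2, 5.35 with shRNA1 and 4.10 with shControl. The predicted gene Gm4802 followed at 0.23. Nearest to Acss1 were the calcium channel subunit gene Cacna2d2, at 0.21, and the meprin gene Mep1b, at 0.26. Cacna2d2 averaged 4.58 on day 4, 5.90 with shRNA2, 7.09 with shRNA1 and 5.75 with shControl, so like Acss1 it was highest with shRNA1 and lowest on day 4.

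Trappc10 had its nearest patterns in Oxsr1, a kinase gene of the WNK pathway, at 0.17, and the oxidation resistance gene Oxr1, at 0.18. Oxsr1 averaged 8.73 on day 4, 7.71 with shRNA2, 8.67 with shRNA1 and 8.80 with shControl, low only with shRNA2. Cgref1 was nearest to Artn, which encodes a ligand of the GDNF family, and to the adaptor gene Efs, both at 0.22, where Efs averaged 8.11 on day 4, 7.72 with shRNA2, 7.08 with shRNA1 and 7.16 with shControl. Calml4 was nearest to Emp1 at 0.37 and Pcolce at 0.44, genes that share its fall on day 4. Emp1 averaged 3.45 on day 4, a dim level, 8.62 with shRNA2, 7.95 with shRNA1 and 8.17 with shControl.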

How the data were processed

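The authors deposited 1 log2 expression value per probe set and array, which the submitters' processing notes credit to RMA. Neither the version of RMA nor a joint normalization of the 8 arrays is given in the sources used here. The labels name a Cy3 label and the design text an Affymetrix array. Of 22690 probe sets, 64 array controls were left out. Symbols came from the platform annotation (20393 probe sets with 1 symbol, 691 with several, 1606 unnamed; 20364 matched to RefSeq, GRCm38.p6, used for names, chromosomes and promoters).

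Titles gave the groups; the descriptions, which name other Fbxl genes on some knockdown samples, were not followed. Group means were fitted to 22626 probe sets by limma 3.58.1 under R 4.3.3 (functions lmFit and eBayes, 4 residual degrees of freedom), calling a probe set at a Benjamini-Hochberg adjusted p under 0.05 over all of them. A gene of a list was represented by its probe set with the highest mean. The genes, lists and tests were chosen with earlier results of these data known.

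Named were the 8 genes with every probe set, the 2 nearest patterns of each, and from each list up to 4 called genes on day 4 with the largest change and 2 between hairpins. The fit was tested on simulated data with known changes in 200 of 22626 probe sets. Of 2-fold changes it called 62.1% between the hairpins and 82.3% on day 4, with 9.7 and 9.8 false calls on average. Changes of 2-fold between the hairpins can thus be missed. There is no read depth, so the number of arrays sets the precision. Alternatives were the choice and mean of probe sets, a filter on dim ones, eBayes settings, array weights, 2 scalings, the replicate block, other references for day 4, a fit of the compared groups alone, and leaving out each array.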

Additional observations from a re-analysis of the deposited data

Results flagged for a closer look

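In 3 genes every shRNA2 array lay on one side of both shControl arrays and every shRNA1 array on the other. How often this order held over all probe sets was not counted, so nothing is read from the number of genes. For Calml4 shRNA2 was higher and shRNA1 lower, 1.29 apart on the log2 scale. Cgref1 had the same order in both probe sets, with 1.05 for 1424529_s_at and 0.92 for 1424528_at. Its shRNA1 side was small, at -0.18 ± 0.13 and -0.30 ± 0.16 from shControl. For Trappc10 shRNA2 was lower and shRNA1 higher by a small margin, 0.26 ± 0.17 from shControl, with shRNA2 minus shRNA1 at -1.25. These differences chose the genes, so they are a description and no test of them is given.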

How the results depend on the processing

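On day 4 against undifferentiated cells, Calml4 and Acss1 were called under all 19 alternatives, from -5.04 to -3.74 and from -2.83 to -0.66. Nup210 reversed against shControl alone (-0.06) and was not called with array weights. Mcrs1 crossed the threshold under 7 of 19 alternatives. The count of genes called, 5, was 3 against shControl alone, 3 against shRNA2 alone and 7 against shRNA1 alone, and 4 to 6 without single arrays. Of all probe sets 4363 were called, and 2825 and 2809 with the brightest probe set or with probe sets averaged by gene, where fewer features were tested (3293 to 4589 without single arrays). Between the hairpins the 16 calls became 7 without the dimmest 30% of probe sets, 213 with array weights and 2 to 32 without single arrays; the cause was not tested. The 40 calls of shRNA1 against shControl became 79, and the 0 of shRNA2 (1236 at an unadjusted p under 0.05) became 12, when the other groups were left out of the fit, and the 40 lay between 3 and 131 without single arrays. With the replicate block there were 10 calls between the hairpins; same-numbered arrays deviated together among the undifferentiated groups (correlations 0.184 to 0.455) but not with day 4 (-0.074 to 0.078), and the labels give no shared batch. The block moved no other count by over 1.5 times.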
